A study of Mus musculus with 11 samples.

Results

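Alpha cells, the glucagon-secreting cells of the pancreatic islet, were followed here through 7 genes: the hormone gene *Gcg*, the secreted carrier proteins *Ttr* and *Gc*, the transcription factors *Irx1*, *Irx2* and *Pou3f4*, and the amino acid transporter *Slc7a2*. They were found by symbol among the 55536 genes counted in each library. All 7 of the 7 passed the filter on low counts, which left 17996 genes over all libraries. Bulk RNA-seq was available for 11 islet libraries from female wild type C57BL/6J mice. Virgin mice and multipara mice were compared. Per the study, littermates were assigned at random to either group at 9 weeks of age, and the virgin controls were age-matched. Multipara mice had 3 pregnancies, and their islets were taken 3 weeks after the last delivery. In each parity group some mice received S-961, a peptide antagonist of the insulin receptor, by intraperitoneal injection (100 nmol/kg each, 2 a day over 3 days), and the others carried the label of no treatment, with no vehicle injection stated. There were 3 virgin and 4 multipara libraries with S-961, and 2 virgin and 2 multipara libraries without treatment.

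Glucagon is cut from proglucagon in alpha cells and raises blood glucose by acting on the liver. The same precursor also holds an incretin peptide, which other cells cut out of it. Irx1 and Irx2 mark alpha cells among the islet endocrine types, and alpha cell number and glucagon secretion are known to respond to circulating amino acids. Because whole islets were sequenced, fewer alpha cells and less of a transcript per alpha cell cannot be told apart in any value below.

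The libraries held 22028507 to 32234146 counts. Counts of *Ins1* and *Ins2*, the insulin genes, made up 35.3 to 41.4% of a library without treatment and 13.2 to 20.7% with S-961, so the libraries were islets by their main hormone. *Gcg* took 1.41 to 4.01%. Some libraries were unlike others of their group. Multipara S-961 1, 2 and 3 differed from one another by a chi-square per gene of 45.2 to 120.3. Virgin S-961 3 differed from virgin S-961 1 and 2 by 52.9 and 58.4, against 8.79 between libraries 1 and 2. The library labelled multipara S-961 4 differed from virgin S-961 1 and 2 by a chi-square per gene of 9.10 and 11, against 54.3 to 90.6 from the other multipara S-961 libraries, and its *Mki67*, a proliferation marker, was at 3.93 CPM (the count scaled to the effective library size) against 43.5 to 93.9 CPM in those. The library labelled multipara untreated 1 had *Mki67* at 38.6 CPM against 2.14 CPM in multipara untreated 2, and a summed level of the 7 immune markers of 811 CPM against 101 CPM. The 9 acinar cell markers summed to 67.9 to 151 CPM without treatment, to 1692 to 6701 CPM in virgin S-961 libraries and to 4351 to 11994 CPM in multipara S-961 libraries. The members' main values are given below with and without multipara S-961 4 and multipara untreated 1.

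Start regions of 3 of the genes are shown because these genes differ in kind at their starts: a hormone gene with a TATA box, a carrier gene that is also active in liver, and a regulator gene in a CpG-rich region. Each run is the 250 bases before the RefSeq transcription start on GRCm38.p6, read 5′ to 3′ on the strand of the gene. Capitals mark the letters TATAAA on the gene strand, TAAT on either strand (the core that many homeodomain proteins bind) and TATTTAC or TGTTTAC on either strand (forkhead letters). RefSeq start regions were found for 4 of the 7 genes.
*Gcg* (chr2:62483654-62483903, minus strand): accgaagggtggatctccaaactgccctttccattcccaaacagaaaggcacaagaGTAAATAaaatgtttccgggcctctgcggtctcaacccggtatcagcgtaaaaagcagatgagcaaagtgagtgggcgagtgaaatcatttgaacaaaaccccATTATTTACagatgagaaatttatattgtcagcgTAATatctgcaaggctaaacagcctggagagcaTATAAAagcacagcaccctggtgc
*Gc* (chr5:89457899-89458148, minus strand): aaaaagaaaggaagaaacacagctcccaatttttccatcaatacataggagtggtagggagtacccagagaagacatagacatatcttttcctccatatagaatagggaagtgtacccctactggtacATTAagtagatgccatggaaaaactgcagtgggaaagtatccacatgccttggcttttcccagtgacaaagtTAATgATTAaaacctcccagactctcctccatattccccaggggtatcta
*Irx2* (chr13:72628570-72628819, plus strand): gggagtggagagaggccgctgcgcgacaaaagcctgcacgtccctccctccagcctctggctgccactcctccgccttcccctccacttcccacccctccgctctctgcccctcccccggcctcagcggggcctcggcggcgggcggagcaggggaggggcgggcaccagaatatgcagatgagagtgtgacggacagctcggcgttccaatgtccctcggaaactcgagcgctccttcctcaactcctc
The *Gcg* run held 1 TATA box, 2 homeodomain cores and 2 forkhead matches, and the homeodomain core in the capitals ATTATTTAC overlaps a forkhead match. It had 7 CpG sites and a GC content of 44.8%. The *Gc* run held 3 homeodomain cores, none of the other letters and 0 CpG sites at 42.0% GC. The *Irx2* run held none of the motifs, 19 CpG sites and 68.4% GC. Over 32851 mouse promoters cut to the same length, 7.59% held TATAAA, 54.9% a homeodomain core and 5.76% forkhead letters, with a median of 6 CpG sites and 52.4% GC. These matches describe letters and not bound sites.

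*Gcg* (ENSMUSG00000000394, chr2:62474530-62483650 on GRCm38, minus strand) encodes proglucagon and was by far the most abundant of the 7 genes. Its level was 44611 and 50373 CPM in the virgin untreated libraries and 23751 and 34809 CPM in the multipara untreated libraries. With S-961 it was 12489, 13180 and 13354 CPM in virgin libraries 1, 2 and 3, and 18553, 21627, 18286 and 14526 CPM in multipara libraries 1, 2, 3 and 4. All 7 S-961 libraries lay below all 4 untreated libraries in CPM, which depends on the scaling. As a share of all counts *Gcg* took 2.17, 2.33 and 2.37% in multipara S-961 1, 2 and 3, above the 2.01% of multipara untreated 1. Within each treatment the parity groups did not overlap, but their order differed: multipara was below virgin without treatment and above it with S-961. Group means were 47492 ± 4074 CPM (SD, n = 2) for virgin untreated, 29280 ± 7819 CPM (SD, n = 2) for multipara untreated, 13008 ± 457 CPM (SD, n = 3) for virgin S-961 and 18248 ± 2908 CPM (SD, n = 4) for multipara S-961.

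**Figure D1:**
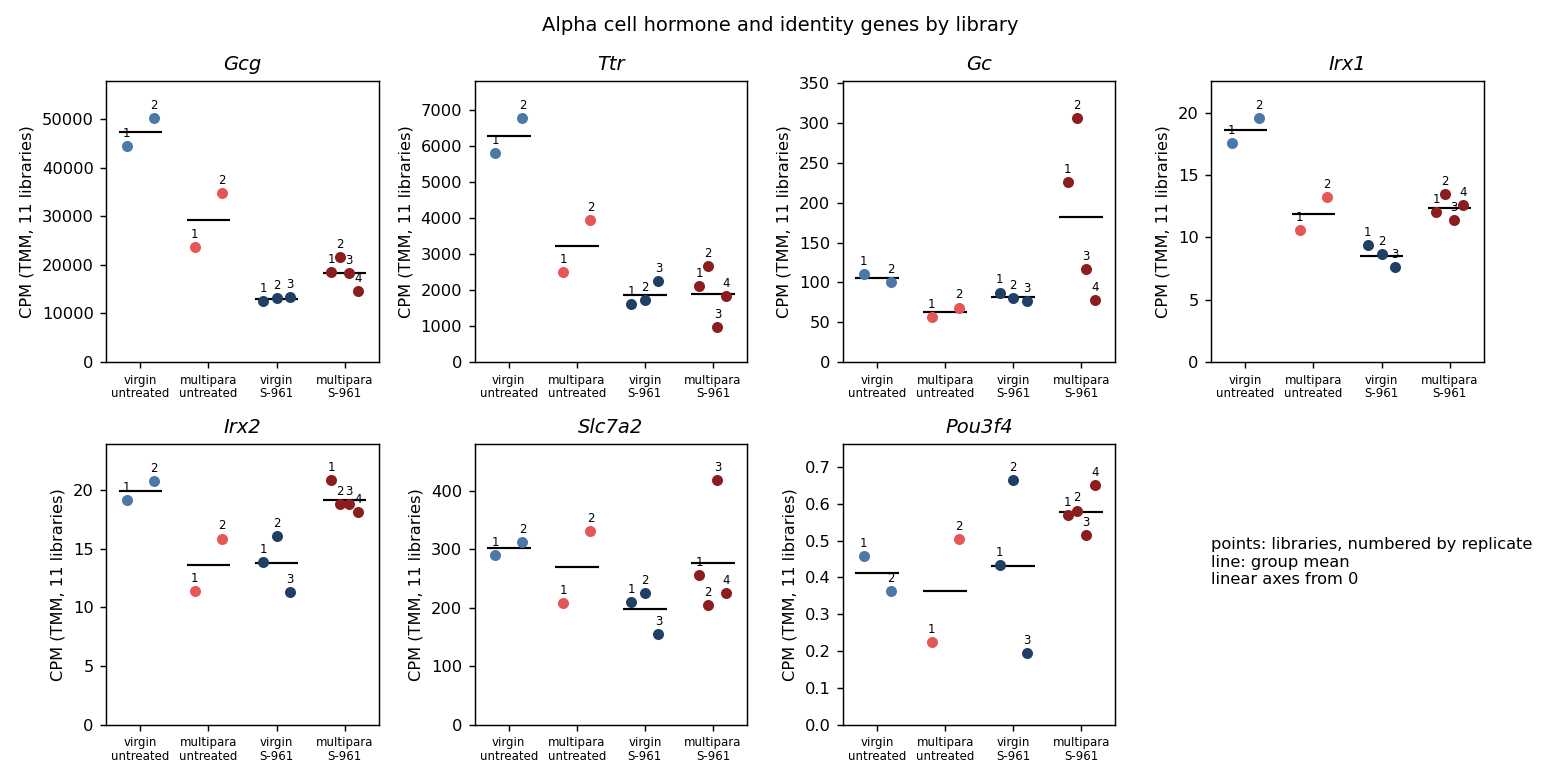
CPM of each of the 7 genes by library, with 1 panel per gene, linear axes from 0, points numbered by replicate and a line at the group mean. *Gcg* lies at 12489 to 21627 CPM in the S-961 libraries and at 23751 to 50373 CPM in the untreated libraries, and *Irx2* has its 4 multipara S-961 libraries at 18.1 to 20.8 CPM, above the 11.3 to 16.1 CPM of virgin S-961.

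*Ttr* (ENSMUSG00000061808, chromosome 18) encodes transthyretin, a carrier of thyroid hormone and of retinol-binding protein that alpha cells also express. It was at 5795 and 6787 CPM in virgin untreated and 2501 and 3943 CPM in multipara untreated libraries. With S-961 it was at 1609, 1730 and 2241 CPM in virgin and at 2109, 2654, 969 and 1820 CPM in multipara libraries. The parity groups were apart without treatment and overlapped with S-961, where multipara S-961 3 was the lowest of all libraries. In that library *Ttr* was 5.30% of the *Gcg* count, against 10.5 to 16.8% in the other 10.

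*Gc* (ENSMUSG00000035540, chr5:89417522-89457898, minus strand) encodes the vitamin D-binding protein, which is made in liver and, within the islet, in alpha cells. Its level was 110 and 101 CPM in virgin untreated and 56.5 and 68.3 CPM in multipara untreated libraries. It was 87.2, 80.8 and 76.5 CPM in virgin S-961 libraries and 226, 307, 117 and 78.2 CPM in multipara S-961 libraries. The last group had the widest spread, and multipara S-961 4 lay at the virgin level. The liver markers summed to 1.16 to 1.8 CPM without treatment and to 97.4 CPM at most with S-961, in multipara S-961 3, where *Apoa1* was at 51.7 CPM and *Apob* at 44.1 CPM. *Alb*, the defining liver transcript, was at 1.22 CPM or less in all libraries. The part of liver RNA in the *Gc* values was not tested. The *Gc* count was 0.196 to 0.247% of the *Gcg* count without treatment and 0.538 to 1.42% with S-961, with no overlap.

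*Irx1* (ENSMUSG00000060969, chr13:71957921-71963723, minus strand) and *Irx2* (ENSMUSG00000001504, chr13:72628820-72634198, plus strand) encode homeodomain factors of the Iroquois family and lie 665096 bases apart. *Irx1* was at 17.6 and 19.6 CPM in virgin untreated, 10.6 and 13.2 CPM in multipara untreated, 9.37, 8.66 and 7.60 CPM in virgin S-961, and 12.1, 13.5, 11.4 and 12.6 CPM in multipara S-961 libraries. In these CPM the virgin groups were far apart, whereas both multipara groups covered about the same range. *Irx2* was at 19.2 and 20.8 CPM in virgin untreated, 11.4 and 15.9 CPM in multipara untreated, 13.9, 16.1 and 11.3 CPM in virgin S-961, and 20.8, 18.8, 18.8 and 18.1 CPM in multipara S-961 libraries. In these CPM, virgin untreated and multipara S-961 libraries were high and the other 2 groups were low, with no overlap. The order across treatments depends on the scaling. By total counts, *Irx2* with S-961 was at -0.06 in virgin islets and *Irx1* at 0.64 in multipara islets (log2 fold change). There were 2077 to 2426 *Gcg* counts per *Irx2* count without treatment and 802 to 1179 with S-961, and 2244 to 2630 per *Irx1* count without treatment and 1151 to 1757 with S-961, so hormone and regulator transcripts did not move in step.

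*Slc7a2* (ENSMUSG00000031596, chr8:40862396-40922308, plus strand) encodes a transporter of cationic amino acids such as arginine. It was at 291 and 313 CPM in virgin untreated, 208 and 332 CPM in multipara untreated, 210, 225 and 156 CPM in virgin S-961, and 257, 205, 418 and 225 CPM in multipara S-961 libraries. Parity groups overlapped in both treatments. The gene overlaps the noncoding *Gm26584* on the other strand, and since the strand setting of the counting was not stated, reads from either cannot be told apart with certainty. *Pou3f4* (ENSMUSG00000056854, chrX:110814280-110817207, plus strand) encodes a POU domain factor described as an early marker of alpha cells. It had 5 to 22 counts per library, or 0.19 to 0.66 CPM, and the multipara S-961 libraries at 0.51 to 0.65 CPM lay just above both untreated groups and inside the range of virgin S-961. At this depth no difference of *Pou3f4* passed a test.

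Levels between genes were compared only per kilobase of exon. The mean over the 11 libraries was 16159 CPM per kilobase for *Gcg*, 2465 for *Ttr*, 64.5 for *Gc*, 28.3 for *Slc7a2*, 5.13 for *Irx2*, 4.73 for *Irx1* and 0.160 for *Pou3f4*. On this scale *Irx2* and *Irx1* were neighbours whose libraries overlapped. *Ins2* was at 142260, *Ppy* (pancreatic polypeptide) at 7574 and *Sst* (somatostatin, the delta cell hormone) at 4421 CPM per kilobase.

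Multipara and virgin islets were first compared without treatment, to see what earlier pregnancies leave in the resting islet. All 7 genes had lower fitted levels in multipara, with a median log2 fold change of -0.64 against 0.02 over all 15812 genes tested. None passed the test, and neither did any other gene (percent called 0, quasi-likelihood test in edgeR, Benjamini-Hochberg adjusted, 889 genes with an unadjusted p under 0.05, DESeq2 22 higher and 34 lower). The log2 fold change was -0.97 ± 0.25 (SE) for *Ttr*, -0.75 ± 0.11 for *Gc*, -0.70 ± 0.24 for *Gcg*, -0.64 ± 0.15 for *Irx1* and -0.55 ± 0.17 for *Irx2*, each with an edgeR adjusted p of 0.719. These 5 of 7 were lower in both multipara libraries than in either virgin library, which was true of 18.8% of all genes tested (17.3% were apart and higher, 36% apart in either direction). *Slc7a2* at -0.16 ± 0.22 and *Pou3f4* at -0.22 ± 0.60 overlapped. DESeq2 called 2 members, *Gcg* (adjusted p = 0.0218) and *Gc* (adjusted p = 3.17e-05). Leaving out 1 multipara library leaves 1 against 2, so that the lone library is assumed to vary like the virgin pair. Fitted so without multipara untreated 2, edgeR called 6 members lower and 1738 genes in all, with *Gcg* at -0.99, *Irx1* at -0.80 and *Irx2* at -0.79. Without multipara untreated 1, *Gcg* was at -0.47, *Irx1* at -0.51, *Irx2* at -0.35 and *Ttr* at -0.70, and 1 member (*Gc*, log2 fold change -0.65, edgeR adjusted p = 0.0499) and 53 genes were called.

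With S-961 the same comparison asked how the islets of both parity groups met insulin resistance. The 7 genes then had higher fitted levels in multipara, with a median log2 fold change of 0.50 against 0.00 over all 16784 genes. Again none passed, in members or elsewhere (percent called 0, 1630 genes with an unadjusted p under 0.05, DESeq2 358 higher and 11 lower). The edgeR log2 fold change was 0.55 ± 0.14 (SE) for *Irx1* (adjusted p = 0.315), 0.50 ± 0.18 for *Gcg* (adjusted p = 0.389) and 0.49 ± 0.14 for *Irx2* (adjusted p = 0.327). These 3 had all 4 multipara libraries above all 3 virgin libraries, which held for 5.23% of all genes (3.64% were apart and lower, 8.87% apart in either direction). *Gc* had the largest value, 1.18 ± 0.41 (edgeR adjusted p = 0.386), with overlapping groups. *Slc7a2* was at 0.51 ± 0.26, *Pou3f4* at 0.44 ± 0.47 and *Ttr* at 0.03 ± 0.30. DESeq2 called 1 member, *Irx1*, at an adjusted p of 0.0359. Without multipara S-961 4, edgeR called 1 member, *Gc*, at 1.43 (adjusted p = 0.0483), and 525 genes in all, while *Gcg* was at 0.60 and *Irx1* and *Irx2* at 0.55 and 0.52.

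**Figure D2:**
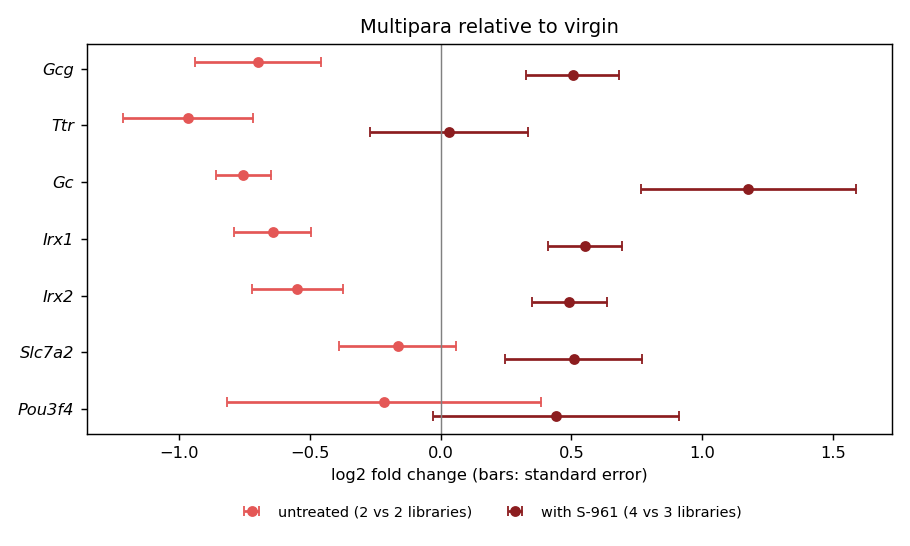
Log2 fold change of multipara relative to virgin for each gene, untreated (2 against 2 libraries, light) and with S-961 (4 against 3 libraries, dark), with bars of 1 standard error from edgeR. The untreated points run from -0.97 to -0.16 and the S-961 points from 0.03 to 1.18, and no point had an adjusted p-value under 0.05.

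The difference between these parity effects, tested as the interaction of parity and S-961, was positive for all 7 genes, with a median of 1.02 on the log2 scale against -0.04 over 17996 genes. It was 1.18 ± 0.22 (SE) for *Irx1*, 1.19 ± 0.29 for *Gcg* and 1.02 ± 0.25 for *Irx2*, with edgeR adjusted p-values of 0.372, 0.440 and 0.436, and no gene passed (percent called 0, 1179 with an unadjusted p under 0.05). DESeq2 called 61 genes higher and 20 lower, with *Irx1* at an adjusted p of 0.00323 and *Gcg* at 0.0129 among them. *Gc* was at 1.92 ± 0.61, *Ttr* at 0.99 ± 0.49, *Slc7a2* at 0.65 ± 0.42 and *Pou3f4* at 0.63 ± 0.83. When multipara S-961 4 and multipara untreated 1 were both left out, edgeR called 31 genes higher and 19 lower and 0 of the members, with *Gcg* at 1.03, *Irx1* at 1.02, *Irx2* at 0.83, *Gc* at 2.04 and *Ttr* at 0.71. Without multipara S-961 4 alone *Gcg* was at 1.28, *Irx1* at 1.17 and *Irx2* at 1.05, and without multipara untreated 1 alone they were at 0.94, 1.03 and 0.80.

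A gene was apart in both treatments with opposite order, as *Gcg* was, in 229 of 15355 genes that could be read in both, or 1.49%. Among the 7 it was true of *Gcg*, *Irx1* and *Irx2*. Among 3 other alpha cell genes it was true of *Etv1* and not of *Smarca1* or *Peg3*. The same 4 genes were apart when counts were scaled by library totals alone. *Etv1*, an ETS transcription factor, was at 46.8 and 45.9 CPM in virgin untreated, 31.0 and 35.2 CPM in multipara untreated, 39.8 to 52.0 CPM in virgin S-961 and 56.2 to 77.1 CPM in multipara S-961 libraries. None of the 9 beta cell markers and none of the delta, PP, acinar, duct, immune, endothelial, stromal, liver or proliferation markers had this order in both treatments. At a share of 1.49% over all genes, lists of this size would hold few or none, so nothing is read from that. The 4 delta cell markers nevertheless had fitted levels of the same signs as the alpha genes, with a median log2 fold change of -0.68 without treatment, where all 4 were apart and lower, and of 0.38 with S-961, where 0 were apart. The beta cell markers had medians of 0.11 and -0.08. For the interaction the delta markers had a median of 0.96, against 1.02 for the 7 members and -0.18 for the beta markers. Markers of other cells also differed by parity, none past the test. With S-961 all 6 stromal markers were positive (median 1.36, 4 apart and higher), as were all 6 duct markers (1.11), all 9 acinar markers (1.02) and all 5 proliferation markers (3.25). The study reported cell cycle genes, *Cdk1* among them, as lower in multipara islets after S-961, the opposite direction. By Ki67 staining it also reported a lower share of proliferating beta cells in multipara after S-961, in the pancreas and in transplanted islets. Mean *Cdk1* was 17.9 CPM in multipara and 1.13 CPM in virgin S-961 libraries, but 0.768 CPM in multipara S-961 4. The labels were taken as given, and the cause of this difference was not tested. Without treatment all 9 acinar markers (median 0.92, 8 apart and higher), all 7 immune markers (1.51) and all 5 proliferation markers (1.93) were positive, while the stromal and duct medians were -0.06 and -0.36. With the acinar level as a covariate, the interaction of *Gcg* was 1.145, of *Irx1* 1.16 and of *Irx2* 0.99. For parity with S-961 this covariate took the median log2 fold change of the 7 genes to 0.32 from 0.50. There 349 genes had an unadjusted p under 0.05 in edgeR, against 1630 without the covariate. The part of the other cell types or of the proliferating libraries in these values was not tested.

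S-961 was then compared with no treatment in each parity group. The virgin comparison and the multipara comparison come from 1 fit over all libraries and share no library. The alternatives counted below also left out libraries of the other parity group. Those bear on the shared spread and hardly on the fold change. In virgin islets 4 of the 7 genes fell and none rose, where 36.5% of all genes were called, 18.8% higher and 17.6% lower. *Gcg* fell by 1.87 on the log2 scale (SE 0.21, edgeR adjusted p = 0.000207), *Ttr* fell by 1.76 (SE 0.35, adjusted p = 0.00323) and *Irx1* fell by 1.12 (SE 0.15, adjusted p = 0.000522). *Irx2* fell by 0.53 (SE 0.18, edgeR adjusted p = 0.0353), a call that was lost under 8 of 19 alternatives, among them the replicate block (-0.47, adjusted p = 0.0781). *Slc7a2* at -0.62 ± 0.30 and *Gc* at -0.37 ± 0.43 were lower in all 3 S-961 libraries than in both untreated ones without passing, and *Pou3f4* was at 0.07 ± 0.59. Fitted on virgin libraries alone, 6 members were called lower, with *Slc7a2* at an edgeR adjusted p of 0.0143 and *Gc* at 0.0195. Being apart and lower was true of 6 of the 7 members and of 35.5% of all genes (32.8% were apart and higher, 68.3% apart in either direction).

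In multipara islets 1 member fell and 2 rose, where 37.6% of all genes were called, 18.2% higher and 19.4% lower. *Gcg* fell by 0.68 (SE 0.19, edgeR adjusted p = 0.0188). This call was lost under 6 of 20 alternatives, including the fit on multipara libraries alone (-0.69, adjusted p = 0.107), the replicate block (-0.56, adjusted p = 0.0684) and the fit without multipara untreated 2 (-0.37, adjusted p = 0.273). *Gc* rose by 1.55 (SE 0.45, edgeR adjusted p = 0.0202), with all 4 S-961 libraries above both untreated ones, and lost the call under 3 of 20 alternatives, which were the fits on multipara libraries alone (adjusted p = 0.0726) and without multipara untreated 1 (adjusted p = 0.129) or 2 (adjusted p = 0.0745). It was reversed, at -0.95, with the acinar covariate. *Irx2* rose by 0.49 (SE 0.17, edgeR adjusted p = 0.0460) and lost the call under 8 of 20 alternatives and was reversed under 1 more, and without multipara untreated 1 it was at 0.27 (adjusted p = 0.379). Without multipara S-961 4, *Gcg* was at -0.59 (edgeR adjusted p = 0.0322), *Gc* at 1.8 (adjusted p = 0.00349) and *Irx2* at 0.52 (adjusted p = 0.0554). *Ttr* was at -0.77 ± 0.33, *Irx1* at 0.06 ± 0.15, *Slc7a2* at 0.03 ± 0.29 and *Pou3f4* at 0.69 ± 0.59. Apart and higher were 3 of the 7 (*Gc*, *Irx2* and *Pou3f4*) and 24.5% of all genes, apart and lower were 1 (*Gcg*) and 24.5%, and 49% of all genes were apart in either direction.

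**Figure D3:**
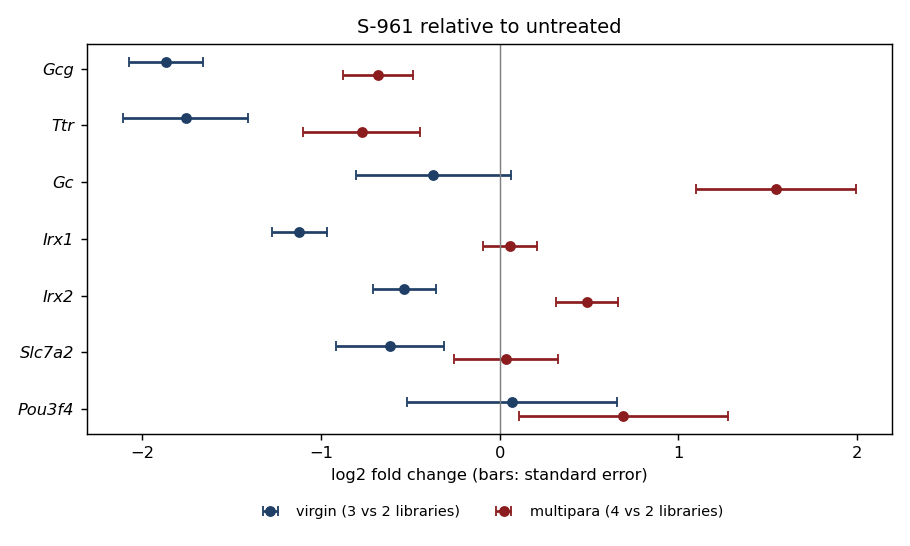
Log2 fold change of S-961 relative to no treatment for each gene, in virgin (3 against 2 libraries) and multipara mice (4 against 2 libraries), with bars of 1 standard error from edgeR. *Gcg* lies at -1.87 in virgin and -0.68 in multipara mice, and *Irx2* at -0.53 and 0.49.

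These directions are relative to the bulk of genes, which depends on the scaling. Scaled by total counts alone, the median of all genes moved to 0.43 in virgin and 0.61 in multipara islets from -0.04 and 0.03, and the calls over all genes split into 6409 higher and 1272 lower in virgin islets (3390 and 3172 with TMM) and into 7787 and 1304 in multipara islets (3272 and 3496 with TMM). On that scale *Gcg* was at -1.40 in virgin and -0.08 in multipara islets, *Irx2* was at -0.06 and 1.09, and *Irx1* was at -0.65 and 0.64. All 9 acinar markers rose with S-961 in both parity groups, with median log2 fold changes of 5.87 and 5.97. With the acinar level as a covariate, which nearly coincides with the treatment, 0 genes were called in either group, and the acinar part in the S-961 effects cannot be told apart from the treatment.

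A ratio of counts within a library is free of such scaling. There were 10.3 and 11.1 *Gcg* counts per 100 insulin counts in virgin untreated and 5.58 and 6.05 in multipara untreated libraries. With S-961 there were 9.25, 9.53 and 6.91 in virgin and 16.3, 13.5, 17.9 and 10.1 in multipara libraries. Multipara libraries thus lay below virgin libraries without treatment and above them with S-961, again without overlap. The mean log2 difference between multipara and virgin was -0.88 without treatment and 0.74 with S-961, and -0.07 over both (exact permutation within treatments, two-sided p = 0.810). The mean log2 difference between S-961 and no treatment was -0.33 in virgin, 1.28 in multipara and 0.47 over both (exact permutation within parity, two-sided p = 0.193, adjusted p = 0.387 over 4 ratio tests). A higher ratio is not a rise of *Gcg*, because the insulin genes moved too. In edgeR *Ins1* and *Ins2* with S-961 were at -1.42 and -1.55 in virgin and -1.82 and -1.99 in multipara islets. By parity they were at 0.18 and 0.17 untreated and at -0.21 and -0.26 with S-961, none of these 4 called. The parity difference with S-961 exceeded that without treatment by 1.61 on the log2 scale (exact permutation, two-sided p = 0.00952, adjusted p = 0.0190 over 2 ratios, smallest possible p = 0.00476). For both ratios that test shuffled parity labels within treatments. Its null is thus no parity difference in either treatment, and not equal differences in both. It was added after the values had been seen, and groups that are apart in opposite order put p near its floor.

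The ratio to *Sst* behaved otherwise. There were 8.75 and 8.29 *Gcg* counts per *Sst* count in virgin untreated, 7.21 and 8.86 in multipara untreated, 6.69, 7.05 and 5.003 in virgin S-961 and 6.72, 6.42, 8.23 and 7.61 in multipara S-961 libraries. The groups overlapped by parity in both treatments. The mean log2 difference by parity was 0.07 (exact permutation, two-sided p = 0.581) and by S-961 -0.31 (exact permutation, two-sided p = 0.0467, adjusted p = 0.187 over 4), and the difference of parity differences was 0.31 (exact permutation, two-sided p = 0.186).

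**Figure D4:**
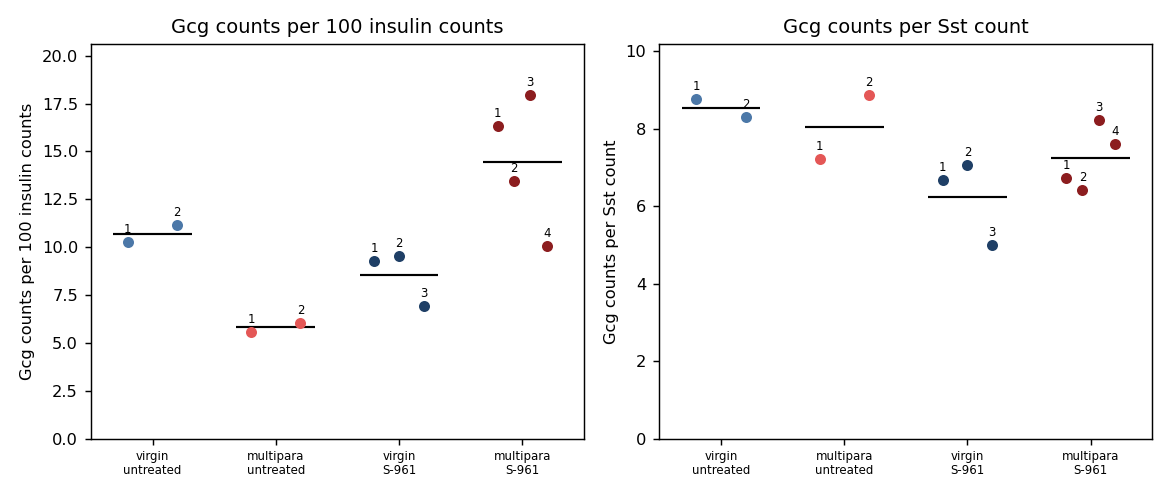
*Gcg* counts per 100 insulin counts (left) and per *Sst* count (right) by library, on linear axes from 0, with points numbered by replicate and lines at group means. Left, multipara untreated libraries lie at 5.58 and 6.05 and multipara S-961 libraries at 10.1 to 17.9. Right, all 11 libraries lie between 5.003 and 8.86.

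Other genes of the alpha cell pathway were read from lists. All are whole-islet levels, so which islet cells gave the RNA of a listed gene cannot be told. Over all genes S-961 called 36.5% in virgin and 37.6% in multipara islets, and counts in lists of this size stand beside that share, with nothing particular to a list read from them. Of the 3 other alpha cell genes, edgeR called 0 with S-961 in virgin islets and 2 in multipara islets, both higher. There *Etv1* rose by 1.03 (edgeR adjusted p = 0.00116) and *Peg3*, an imprinted zinc finger gene, rose by 0.84 (adjusted p = 0.0265). *Smarca1*, a chromatin remodelling ATPase, was at 0.45 ± 0.16 in multipara and -0.36 ± 0.16 in virgin islets. Of 6 tested transcription factors shared with other islet cells, 1 rose in each comparison, *Neurod1*, by 1.48 in virgin and 1.17 in multipara islets. Of the 4 other Iroquois genes only *Irx3* passed the filter, and it was not called in any comparison.

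Among 5 genes of prohormone processing, 1 rose and 1 fell in each parity group. The riser was *Pcsk1*, the convertase that yields an incretin rather than glucagon from proglucagon, with 1.38 in virgin and 1.53 in multipara islets. The gene that fell was *Scg5*, a chaperone of the glucagon convertase, by 0.78 in virgin islets, and *Pcsk1n*, an inhibitor of *Pcsk1*, by 0.53 in multipara islets. Another list held 5 genes, namely receptors of proglucagon peptides, the receptor *Gipr* and the protease *Dpp4*. *Dpp4*, which inactivates incretins, rose by 0.58 in virgin and 0.79 in multipara islets. *Gipr*, the receptor of the incretin GIP, which is not cut from proglucagon, fell by 0.72 in multipara islets. Among 6 genes through which alpha cells receive signals, again read in whole-islet RNA, 2 rose and 2 fell in virgin and 2 rose and 0 fell in multipara islets. The calcium-sensing receptor *Casr* rose by 1.56 and 2.22 and the amino acid transporter *Slc38a4* by 0.57 and 0.72 in virgin and multipara islets. The somatostatin receptor *Sstr2* fell by 1.48 and the glutamine transporter *Slc38a5* by 0.77 in virgin islets. In multipara islets *Sstr2* was at -0.22 ± 0.41 (SE) and *Slc38a5* at 0.62 (edgeR adjusted p = 0.0843). Its levels had the crossing order, with 19.0 and 18.1 CPM in virgin untreated, 10.7 and 14.0 CPM in multipara untreated, 10.6 to 11.2 CPM in virgin S-961 and 13.6 to 26.7 CPM in multipara S-961 libraries. None of these listed genes was called by parity in either treatment with edgeR.

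The pattern of *Gcg* over the 11 libraries was compared with that of 11286 genes with a mean log2 CPM of at least 2. Likeness was the root mean square difference of centred log2 CPM, on which the SD of *Gcg* itself was 0.68. Among the closest were *Gpx3* (0.11), *1700086L19Rik* (0.15), *Rbp4* (0.16) and *Pgf* (0.18). Of these *Rbp4* is in the delta marker list. Among the members *Irx1* (0.39) ranked 573 and *Ttr* (0.40) 623, and *Slc7a2* (0.57), *Irx2* (0.62) and *Gc* (0.96) ranked 3023, 3810 and 8731.

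**Figure D5:**
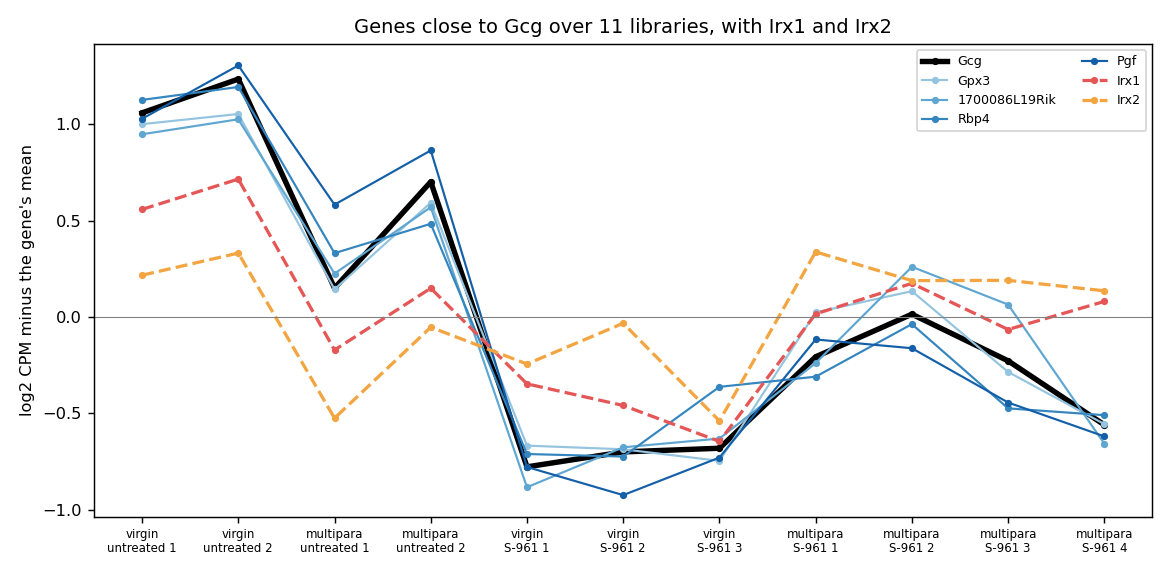
Log2 CPM minus the gene's mean over the 11 libraries (y axis) by library (x axis), for *Gcg*, 4 of the genes closest to it and *Irx1* and *Irx2*. *Gcg* and its 4 neighbours lie highest in the virgin untreated libraries, with root mean square differences of 0.11 to 0.18, while *Irx2* is at 0.62.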

How the data were processed

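Islet RNA was extracted with Trizol and made into poly(A)-selected libraries with a stranded kit, per the labels. For each library the authors deposited estimated counts by gene, not normalized. The submitters' processing notes name STAR, RSEM and the builds GRCm38 and mm10. The strand setting and versions are not given in the sources used here. Dose and schedule of S-961 came from the study's methods. Values that were not whole (4449 to 5162 genes in a library) were rounded. Gene coordinates came from GENCODE M21, and start regions from RefSeq.

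Differences were tested with edgeR 4.0.16 (R 4.3.3), TMM factors, filterByExpr (minimum count 10, minimum total count 15), the quasi-likelihood test and Benjamini-Hochberg adjustment over all genes at 0.05. Parity was tested on the libraries of each treatment, and S-961 and the interaction on all 11. CPM used TMM factors of all libraries. Ratios were tested by exact two-sided permutation. Alternatives were DESeq2 1.42.0, other scalings, no filter, a replicate block, other sets of libraries, an acinar covariate and leaving out each library. The scripts were tested on simulated data. Figures used Python 3.11.15 and matplotlib 3.10.9.

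The 7 members and the gene lists were chosen with earlier results of these data known. Other listed genes were named by rule: at most 4 per comparison and direction by p among those called. Some listed or rule-named genes are not reported here, and counts of their lists leave them out. *Etv1*, *Smarca1*, *Slc38a5*, the hormones and the genes of libraries that stood apart were named besides, after their values were seen. Replicates of a group differed by a chi-square per gene of 8.79 to 120.3, so none was a repeat. The labels do not say that replicates came from separate mice, so p-values measure the spread between these libraries, which may be partly technical. Counts of *Pou3f4* (5 to 22 in a library) were low enough for counting error to limit its values.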

Additional observations from a re-analysis of the deposited data

Results flagged for a closer look

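The order of multipara and virgin libraries in *Gcg* counts per insulin count turned round between treatments. The log2 difference between multipara and virgin was higher by 1.61 with S-961 than without treatment (exact permutation, two-sided p = 0.00952, adjusted p = 0.0190 over 2 ratios), and every multipara library lay on the same side of every virgin library within a treatment. It ran from 1.47 to 1.78 with each library left out in turn. Groups that are apart stay apart when a library is left out, so p stays near its floor and gives no further check. The difference was 1.63 with *Ins2* and 1.58 with *Ins1* as the only insulin gene. The test was chosen after the values had been seen, and its null was no parity difference in either treatment, not equal differences in both. The labels were taken as given. In multipara S-961 1, 2 and 3 the ratio was 13.5 to 17.9 per 100 and *Mki67* 43.5 to 93.9 CPM. In multipara S-961 4 they were 10.1 and 3.93 CPM, and in virgin S-961 libraries 6.91 to 9.53 and 3.04 to 13.9 CPM. The study reported more beta cell proliferation after S-961 in virgin than in multipara mice. How far the order rests on these labels was not tested. In the group of 4, 9 values were screened for a library far from the others, and none met the limit.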

How the results depend on the processing

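Of 586 alternative values for the 7 genes over the 5 comparisons, 518 kept direction and side of the threshold, 28 lost the call, 19 gained it and 21 were reversed. For S-961 these include libraries of the other parity group left out, which hardly bear on the fold change. The 518 are thus not all separate checks. DESeq2 called 1 member by parity with S-961, 2 untreated and 2 in the interaction, against 0 by edgeR. With libraries left out, members called by parity ran from 0 to 1 with S-961 and from 0 to 6 untreated, and members called by S-961 ran from 3 to 5 in virgin and from 1 to 4 in multipara islets. For S-961, 0 members were called on multipara libraries alone and 6 on virgin libraries alone. The acinar covariate left 0 calls in both S-961 comparisons, with *Pou3f4* at -2.14 in virgin, and *Irx2* at -0.62, *Slc7a2* -1.12, *Gc* -0.95, *Pou3f4* -1.48 and *Irx1* -0.46 in multipara islets. Total counts put *Gc* at 0.10 in virgin islets. Signs turned with libraries left out for *Ttr* by parity with S-961 (-0.18 to 0.25), *Slc7a2* (-0.53 to 0.11) and *Pou3f4* (-0.85 to 0.27) by parity untreated, *Pou3f4* by S-961 in virgin (-0.38 to 0.41), and *Slc7a2* (-0.26 to 0.42) and *Irx1* (-0.094 to 0.23) by S-961 in multipara islets. Without multipara S-961 4 and multipara untreated 1, an alternative chosen after seeing the data, *Slc7a2* was at -0.18 and *Irx1* at -0.10. The cause was not tested. The *Gcg* to insulin ratio by parity ran from -0.15 to 0.0099, the *Gcg* to *Sst* ratio by parity from -0.011 to 0.14 and by S-961 from -0.38 to -0.23 (exact permutation p from 0.0200 to 0.180). The virgin untreated libraries left out in turn took *Pou3f4* out of the untreated comparison.

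Calls over all genes moved by over 1.5 times in these cases. By parity with S-961 there were 369 by DESeq2, 342 with the replicate block, 525 without multipara S-961 4 and 1 without virgin S-961 3, against 0. Untreated there were 56 by DESeq2, 3 with no filter, 53 without multipara untreated 1 and 1738 without multipara untreated 2. For the interaction there were 81 by DESeq2, 34 with the block, 4 with no filter, 45 without multipara S-961 4, 32 without multipara untreated 2 and 50 without multipara S-961 4 and multipara untreated 1. For S-961, calls were 3503 and 3053 without virgin untreated 1 or 2 in virgin islets, and 4428 on multipara libraries alone, 3618 without multipara untreated 1 and 3632 without it and multipara S-961 4 in multipara islets. The acinar covariate left 0 of these calls too.

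Libraries of the same number were compared for pairing. Their deviations correlated by 0.25, -0.36 and -0.28 with S-961 and by 0.13 without treatment, so the numbers were not read as pairs. With the replicate block, *Ttr* by parity with S-961 was at -0.030, *Irx2* by S-961 in virgin at -0.47 and *Gcg* by S-961 in multipara at -0.56, and the last 2 lost the call.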
